A study of Mus musculus with 8 samples.

Results

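The genes described here are the components of the transcription factor AP-1 and a few other immediate early genes, namely Fos, Fosb, Fosl1, Fosl2, Jun, Junb, Jund, Egr1, Atf3 and Ier2. They were chosen by name, as every probe set whose only annotated symbol is 1 of these 10, which gave 14 probe sets for 10 genes, out of 34945 probe sets for 18193 genes. A probe set is a group of short probes that reads 1 transcript or a part of it. The cells were mouse neural stem cells (NSCs) derived from embryonic stem cells, a radial glia-like culture that is kept dividing with EGF and FGF2. The irr group holds 4 cultures taken on day 7 after X-ray irradiation with 10 Gy, and the non-irr group holds 4 cultures that were not irradiated. Both groups were grown in the same medium with both growth factors, and the irr cells were not passaged after irradiation. The methods name E14Tg2a as the embryonic stem cell background of most NSCs in the study, without saying which line these arrays used, and the labels give 1 dose and 1 time point, so hours and days before day 7 were not measured. The irradiation was performed in quadruplicate, so n = 4 arrays per group throughout.

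AP-1 is a pair of basic leucine zipper (bZIP) proteins, either 2 JUN proteins or a JUN with a FOS, ATF or related protein, bound to a short palindromic DNA site. Many of its genes are immediate early genes, whose transcription starts within minutes of a growth factor, stress or DNA damage signal without new protein synthesis, and then usually ceases. MAP kinases act on them through ternary complex factors at serum response elements and through phosphorylation of JUN itself. In neural stem cells and glia the same genes are known as readouts of EGF and FGF2 signalling and of injury.

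In irr NSCs on day 7 Fosl2, Fos, Atf3 and Junb were at least 2-fold higher than in non-irr NSCs, and Jun was 1.64-fold higher. Egr1 was 2.13-fold lower and Ier2 1.81-fold lower, while Jund was not called either way. Thus of the 10 genes 5 were higher, 2 were lower, 1 was not called, and 2 (Fosb and Fosl1) stayed under the intensity of 100 on every array and were not tested. These counts have to be read against the whole array, on which 77.3% of 11372 genes were called at an adjusted p under 0.05 in limma, 40.2% higher and 37.1% lower in irr NSCs. At least 2-fold higher were 4 of the 8 member genes tested, against 8.90% of all genes, and at least 2-fold lower was 1 of 8, against 6.17% of all genes. The median log2 fold change of the 8 genes was 0.88, against 0.0069 over all genes tested. Over probe sets, 8 of the 10 tested were called, against 75.1% of all probe sets tested.

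Promoter sequence is shown for 3 genes that rose and hold a cAMP response element-like match, the kind of site that ATF, CREB and JUN proteins bind. It is also shown for Fosl2, the gene with the largest increase by its brighter probe set, which holds none. Junb, which rose as well, also holds none and is not shown. Each sequence shown is the 100 bases before the gene's start in RefSeq on GRCm38.p6. It is read 5′ to 3′ along the gene's own strand, with the match in capitals. Fos lies on the plus strand with its window at chr12:85473790-85473889, Jun on the minus strand at chr4:95052223-95052322, Atf3 on the minus strand at chr1:191183334-191183433 and Fosl2 on the plus strand at chr5:32136372-32136471.
Fos: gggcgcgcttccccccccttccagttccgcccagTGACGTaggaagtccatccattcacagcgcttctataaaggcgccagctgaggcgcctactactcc
Jun: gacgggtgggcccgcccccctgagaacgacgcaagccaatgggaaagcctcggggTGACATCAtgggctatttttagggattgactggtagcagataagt
Atf3: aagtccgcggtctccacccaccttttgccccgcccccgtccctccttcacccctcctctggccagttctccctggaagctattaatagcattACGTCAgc
Fosl2: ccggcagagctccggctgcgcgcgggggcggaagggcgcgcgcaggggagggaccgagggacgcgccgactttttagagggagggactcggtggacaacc

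The motifs were searched on both strands in windows of 300 bases, 250 before and 50 after the start, for the 7 of 10 members with a promoter entry that is reported here. Fos held the shortened element TGACGT at bases -66 to -61 from the start, and Atf3 held it on the opposite strand at bases -8 to -3, where it reads ACGTCA. Of all 32851 windows of this length, 7.51% held these 6 letters. Jun held TGACATCA, which differs from the full element by 1 base, at bases -45 to -38, as did 3.62% of all windows. No other variant of the full element by 1 base was searched, so this share is not that of such variants together. Fos also held TATAAA at bases -33 to -28 and Junb held it at bases 1 to 6, against 13.6% of all windows. None of the 7 windows held the AP-1 site TGANTCA (7.81% of all windows), the full element TGACGTCA (1.79%) or a serum response element (1.63%), and TGACGT is part of the full element. A match is only a run of letters in these windows, and no factor binding was measured. Elements further than 250 bases before the start were not searched, so their absence from a gene is not shown.

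On the 8 arrays the median log2 value lay between 6.216 and 6.245, arrays of 1 group correlated at 0.996 to 0.998 and arrays of different groups at 0.972 to 0.9757 over all probe sets. The difference between 3′ and 5′ control probe sets was larger in irr arrays for actin (0.51 ± 0.07, against 0.26 ± 0.03 in non-irr arrays, log2, SD) and for the transferrin receptor (0.85 ± 0.24, against 0.35 ± 0.21), each with an exact permutation p of 0.029, the smallest possible, and it did not differ detectably for Gapdh (-0.06 ± 0.03, against -0.08 ± 0.04). Of 9 NSC markers on the array 8 were over an intensity of 100 on all 8 arrays, and Hes5 was over it on 4 non-irr and 2 irr arrays. Slc1a3 (log2 fold change 0.46), Sox2 (0.23), Fabp7 (0.18) and Vim (0.16) were higher in irr NSCs. Hes5 (-0.63) and Pax6 (-0.54) were lower, and Nes, Sox9 and Olig2 were not called. Of 6 microglia and macrophage markers 1 (Csf1r) passed on all arrays and 5 on none, and of 5 endothelial markers 4 passed on none. The neuron markers Tubb3, Dcx, Rbfox3 and Map2 passed on all arrays, Syt1 on irr arrays only and Snap25 on none. Tubb3, Dcx and Rbfox3 were lower in irr NSCs, Map2 was not called and Syt1 was at least 1.61-fold higher. Pluripotent markers passed on no array for 4 of 5, and Dppa5a passed on all. Col3a1 and Thy1, 2 of 6 fibroblast markers, passed on all arrays, while Col1a1, Col1a2 and Pdgfra passed on none. Dcn passed on 3 irr arrays and no non-irr array, and was at least 1.06-fold higher. The summed intensity of these 6 was 5220 to 5725 in irr and 1731 to 1822 in non-irr arrays. What part cell types, RNA ends or RNA content had in the changes of the 10 genes was not tested, and in bulk RNA fewer cells of a type and less RNA per cell cannot be told apart.

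Among the FOS proteins, which cannot pair with each other and need a JUN partner, Fosl2 had the largest change by its brighter probe set, though not by the mean of both. Fosl2 encodes FRA-2, a FOS relative that lacks the strong activation domain of FOS and stays expressed for longer after a stimulus. By its brighter probe set, 1437247_at, it read 9.79, 9.76, 9.90 and 9.85 in irr NSCs, against 7.85, 7.89, 7.90 and 7.96 in non-irr NSCs (log2 values). The irr arrays lay far above all non-irr arrays, and arrays of 1 group lay close together (SD 0.06 in irr and 0.05 in non-irr NSCs). The log2 fold change was 1.92 (SE 0.05, 95% interval 1.81 to 2.03), a 3.79-fold higher level with an adjusted p of 9.8e-10 in limma. Only 236 of 11372 genes (2.08%) rose as far.

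Fos, the founding immediate early gene and the classical partner of JUN, read 10.64, 10.65, 10.75 and 10.60 in irr NSCs, against 9.32, 9.18, 9.15 and 9.20 in non-irr NSCs. Here too every irr array was above every non-irr array. Its log2 fold change was 1.44 (SE 0.05, 95% interval 1.32 to 1.57, adjusted p 9.7e-09), or 2.72-fold, and 493 genes (4.34%) rose at least as far.

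The remaining FOS genes were dim. Fosb, whose protein and its truncated form ΔFOSB are known from neurons under chronic stimulation, read 4.59, 4.69, 4.46 and 4.62 in irr NSCs and 4.05, 4.56, 4.23 and 4.30 in non-irr NSCs. The groups overlapped, and no array reached the intensity of 100 (6.64 on the log2 scale). Fosl1, which encodes FRA-1, has a pair of probe sets designed on the same sequence. The first, 1417487_at, read 6.15, 6.27, 6.59 and 6.34 in irr NSCs and 4.97, 4.98, 5.02 and 5.34 in non-irr NSCs, a difference of 1.26 without overlap. The second, 1417488_at, read 6.004, 5.98, 6.17 and 6.15 in irr NSCs, against 5.96, 5.92, 5.73 and 5.91 in non-irr NSCs, a difference of 0.20. Neither crossed the intensity filter on any array, so Fosl1 is described and not called.

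**Figure D1:**
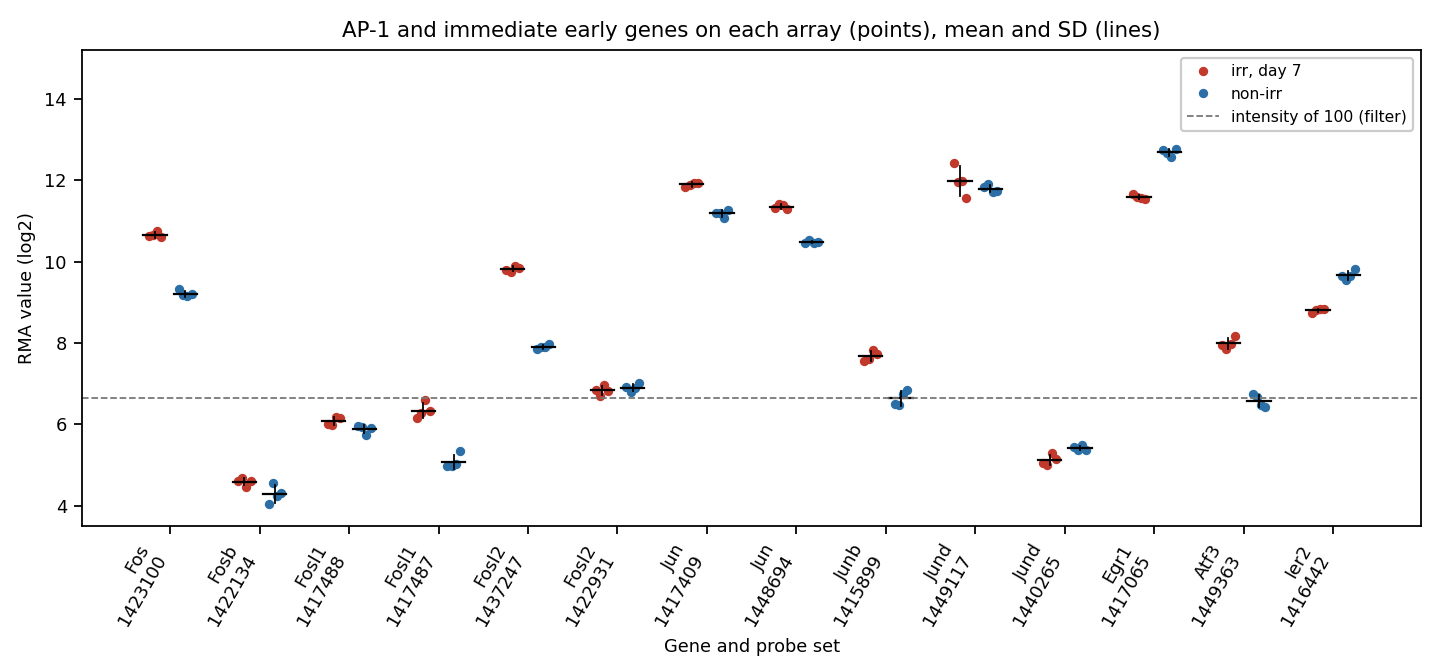
Log2 RMA values of every probe set of the 10 genes on each array, with irr day 7 points left of non-irr points for each probe set and lines at the mean and SD of each group (n = 4), and the intensity filter of 100 as a line. Fosl2 1437247_at sits between 9.76 and 9.90 in irr NSCs, above 7.85 to 7.96 in non-irr NSCs, Egr1 sits lower in irr than in non-irr NSCs, and Fosb and Fosl1 lie under the filter.

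The JUN proteins are the obligatory members of every AP-1 pair, since they pair among themselves and with every FOS protein. Jun, the strong activator that JNK phosphorylates, was higher by both of its probe sets. Probe set 1417409_at read 11.83, 11.89, 11.93 and 11.95 in irr NSCs, against 11.20, 11.19, 11.08 and 11.27 in non-irr NSCs. No irr array fell within the non-irr range, and the log2 fold change was 0.71 (SE 0.05, adjusted p 1e-06). Probe set 1448694_at read 11.31, 11.41, 11.38 and 11.29 in irr NSCs and 10.46, 10.52, 10.47 and 10.49 in non-irr NSCs, with a log2 fold change of 0.86 (SE 0.04, adjusted p 8.6e-08) or 1.82-fold. The increase of Jun was smaller than that of Fosl2, Fos, Atf3 or Junb, and 15.4% of all genes rose as far. Tested against a 1.5-fold change in place of 0, Jun was no longer called by its brighter probe set 1417409_at (adjusted p 0.076 in limma). The other 7 of the 8 called member probe sets, 1448694_at among them, were still called. The share of all probe sets called in that test is not given here, so this count cannot be set against the whole array.

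Junb, a JUN protein that activates weakly and restrains JUN on many promoters, read 7.56, 7.60, 7.82 and 7.73 in irr NSCs, against 6.50, 6.48, 6.74 and 6.84 in non-irr NSCs. All irr arrays but only 2 of 4 non-irr arrays were over the intensity of 100, and the groups did not overlap. The log2 fold change was 1.04 (SE 0.09, 95% interval 0.83 to 1.25, adjusted p 4.6e-06), so the 2-fold threshold lay inside its interval.

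Jund is the JUN protein that is present in resting cells and is induced least by growth factors. Its bright probe set 1449117_at read 12.44, 11.95, 11.98 and 11.56 in irr NSCs, against 11.83, 11.91, 11.72 and 11.73 in non-irr NSCs. Irr replicates 1, 2 and 3 were above all non-irr arrays and irr replicate 4 below all of them, so the groups overlapped, and the SD was 0.36 in irr and 0.09 in non-irr NSCs. The log2 fold change of 0.19 (SE 0.15, 95% interval -0.16 to 0.53) was not called (adjusted p 0.29 in limma). It was called higher without irr replicate 4 (0.33, adjusted p 0.032) and was 0.03 and not called without irr replicate 1. The second probe set of Jund, 1440265_at, lay under the filter at 5.04, 5.01, 5.29 and 5.14 in irr NSCs and 5.44, 5.37, 5.49 and 5.37 in non-irr NSCs.

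ATF3 is a stress-induced bZIP protein of the ATF/CREB family that pairs with JUN proteins and often represses. Atf3 read 7.95, 7.86, 7.98 and 8.18 in irr NSCs, against 6.73, 6.67, 6.47 and 6.43 in non-irr NSCs. Every irr array was above every non-irr array, and 2 of the 4 non-irr arrays were under the intensity of 100. Its log2 fold change of 1.42 (SE 0.09, 95% interval 1.22 to 1.61, adjusted p 3e-07) corresponds to 2.67-fold, and 518 genes (4.56%) rose at least as far.

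The 2 members that are not bZIP factors changed in the opposite direction. Egr1 is a zinc finger factor that growth factors switch on through ERK and the serum response factor. It read 11.67, 11.60, 11.57 and 11.54 in irr NSCs, against 12.73, 12.67, 12.58 and 12.77 in non-irr NSCs. No irr array came near the non-irr range, and the log2 fold change was -1.09 (SE 0.05, 95% interval -1.22 to -0.97, adjusted p 6.6e-08 in limma). As far a decrease was seen in 581 genes (5.11%). Ier2, a small nuclear protein induced alongside FOS and EGR1, read 8.75, 8.80, 8.84 and 8.83 in irr NSCs, against 9.64, 9.54, 9.65 and 9.82 in non-irr NSCs. Its groups were likewise apart, with a log2 fold change of -0.86 (SE 0.06, adjusted p 8.5e-07), and 8.34% of all genes fell at least as far. In RefSeq on GRCm38.p6, Ier2 (chr8:84661331-84662852) and Junb (chr8:84976909-84978748) lie on the same stretch of chromosome 8 and changed in opposite directions.

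Among the 8 genes tested, the irr and non-irr arrays did not overlap for 7, all but Jund, against 73.4% of all genes tested. Without any filter 11 of the 14 probe sets were free of overlap, against 49.7% of all 34945 named probe sets. Of the 4 irr arrays, replicate 3 was the highest for 8 of the 14 probe sets, and replicates 1, 2 and 4 for 2 each. The 14 include probe sets under the filter and more than 1 of the same gene. The same count over all probe sets is not given here, so it cannot be set against the whole array.

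**Figure D2:**
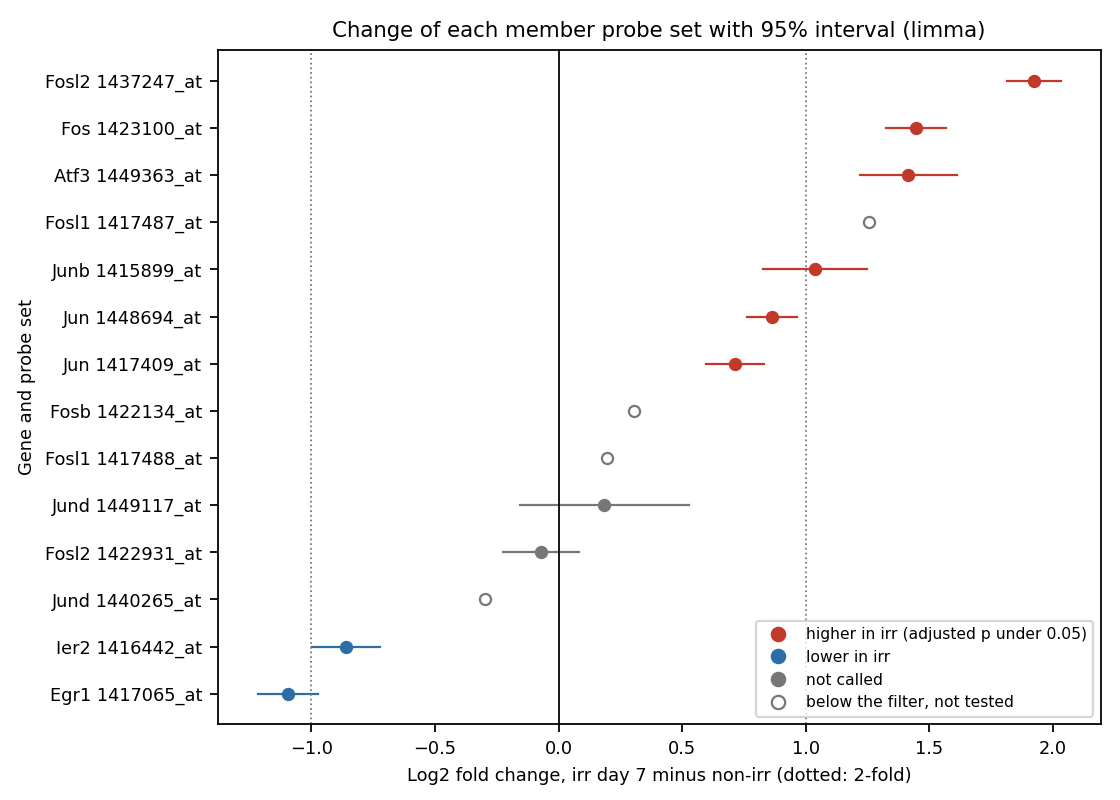
Log2 fold change (irr day 7 minus non-irr) of each probe set of the 10 genes, with the 95% interval where the probe set was tested open points where it lay under the intensity filter, and dotted lines at a 2-fold change. Fosl2 1437247_at (1.92), Fos (1.44) and Atf3 (1.42) lie furthest to the right, Egr1 (-1.09) and Ier2 (-0.86) lie to the left of 0, and the second Fosl2 probe set (-0.07) spans 0.

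Probe sets of 1 gene did not always give 1 answer, most clearly for Fosl2. Its second probe set, 1422931_at, read 6.84, 6.70, 6.97 and 6.82 in irr NSCs, against 6.91, 6.80, 6.88 and 7.02 in non-irr NSCs. The groups overlapped and the log2 fold change of -0.07 (SE 0.07, 95% interval -0.22 to 0.08, adjusted p 0.36 in limma) was not called, while with the arrays centred on reference genes it was 0.19 (adjusted p 0.042). The changes of the 2 Fosl2 probe sets differed by 1.99 (exact permutation test over the 8 arrays, two-sided, p 0.029, the smallest that 4 against 4 arrays can give). With the mean of both in place of the brighter one, the change of Fosl2 was 0.93 and still called, smaller than those of Fos and Atf3, and 4 members in place of 5 changed at least 2-fold. For Fosl1 the difference between its probe sets was -1.06 (1417488_at minus 1417487_at, exact p 0.029), for Jun -0.15 (1417409_at minus 1448694_at, exact p 0.057) and for Jund 0.48 (1449117_at minus 1440265_at, exact p 0.057). Adjusted over these 4 pairs, every p was 0.057, so none passed the threshold. Which transcripts each probe set reads was not determined here.

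The genes whose profile over the 8 arrays was most like that of Fosl2 1437247_at, the member probe set with the largest change, were found by the root mean square difference of log2 values after the mean of each gene was taken off. They were Ephx1 (microsomal epoxide hydrolase, difference 0.042, log2 fold change 1.96), Susd6 (a membrane protein with a sushi domain, 0.048, 1.99) and Grm3 (a metabotropic glutamate receptor, 0.049, 1.89). Grm3 was under the intensity of 100 on all non-irr arrays, so its increase is at least 2.12-fold. Such likeness over 8 arrays in 2 groups rests mostly on the size of the group difference.

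Other immediate early genes moved in both directions as the members did. Of 18 further immediate early transcription factors 16 were tested, and 6 were higher, 8 lower and 2 not called, with a median log2 fold change of -0.18, which was 0.086 with the arrays centred on reference genes. Klf4 (1.498) and Klf6 (1.47), Krüppel-like factors, rose most, ahead of the orphan nuclear receptor Nr4a1 (0.40). The EGR1 relatives Egr3 (log2 fold change -1.68, SE 0.07, adjusted p 2.6e-08) and Egr2 (-0.61) fell with Egr1, as did the small MAF protein Maff (-0.71). Among 20 immediate early genes that are not transcription factors, 18 were tested, 13 were higher and 4 lower, with a median of 0.42. The matricellular genes Ccn2 (2.86, SE 0.07, adjusted p 7.2e-10, or 7.26-fold) and Ccn1 (2.00) had the largest increases, followed by the MAP kinase phosphatase Dusp1 (1.16). Lower were the pseudokinase Trib1 (-1.21) and the synaptic genes Arc (under the filter on all irr arrays, at least 1.31-fold lower) and Homer1 (-0.44), the last of which was not called with reference gene centring.

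The other bZIP genes, whose proteins can pair with JUN or FOS proteins, or compete with them for sites, were mostly higher. Of 21 listed 16 were tested, with 13 higher, 1 lower and 2 not called, a median of 0.68, and 6 at least 2-fold higher. Ddit3, the stress factor CHOP, led with a log2 fold change of 2.34 (SE 0.07, adjusted p 3.6e-09, or 5.05-fold), followed by Crem (1.40) and by Nfe2l2 (1.39), the oxidative stress factor NRF2. Batf, a JUN partner, was lower at -0.24 (adjusted p 0.012), but at 0.0251 and not called with the arrays centred on reference genes.

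Upstream of the members, the counts were mixed. Of 6 serum response and ternary complex factors tested of 7, 3 were higher (Elk3 0.64, Elk1 0.37 and Mrtfa 0.30), and lower were the serum response factor itself, Srf (-0.44), and Mrtfb (-0.16, but 0.10 and not called with reference gene centring), with a median of 0.14. For 16 of 20 MAP kinase pathway genes, 7 were higher, 5 lower and 4 not called, with a median of 0.019, which was -0.0083 after a further quantile normalization. Mapk10, the JNK isoform best known from neurons, was at least 3.78-fold higher by a probe set that can also bind other transcripts, and was under the filter on all non-irr arrays. Map3k5 (1.35) and Rps6ka5 (1.11), the histone kinase MSK1, rose as well, while Map3k1 (-1.17), Map2k6 (-1.05) and Mapk11 (-0.46) fell. The JNK genes Mapk8 (-0.03) and Mapk9 (0.06) were not called. Of 10 dual-specificity phosphatases tested of 11, which switch MAP kinases off, 6 were higher and 2 lower with a median of 0.42. Dusp4 (1.72, SE 0.06, adjusted p 3.8e-09, or 3.29-fold), Dusp1 and Dusp16 (0.55) rose most, and Dusp2 (-0.37) and Dusp14 (-0.35) fell, though these last were not called with reference gene centring.

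Among genes that act on the JUN and FOS proteins or messengers, calls were made in both directions. Of 12 regulators of the proteins 10 were tested, with 4 higher, 3 lower and none at 2-fold, and a median of -0.086 (0.18 with reference gene centring). Higher were the coactivators Ep300 (0.60) and Crebbp (0.54) and the ubiquitin ligase subunit Fbxw7 (0.57), and lower were the corepressor subunit Hdac3 (-0.44) and, only without reference gene centring, Men1 (-0.24, but 0.0258 with it) and Cops5 (-0.14, but 0.12 with it). All 8 AU-rich element binding proteins, which control the decay of messengers such as that of Fos, were tested, and 2 were higher and 5 lower, with a median of -0.52. Hnrnpd fell most (-1.22, SE 0.05, adjusted p 1.2e-08), but by its probe set with a plain identifier, which reads 1 transcript by design, it was at -0.10 and not called (adjusted p 0.25 in limma). Next came Khsrp (-0.74) and Elavl1 (-0.63), although a dimmer probe set of Elavl1 was higher (0.42, adjusted p 0.00066). Zfp36l2 (0.76) and Zfp36 (0.43) rose.

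Of 22 textbook AP-1 targets only 11 were tested, since 9 lay under the filter, among them Mmp3, Mmp9, Mmp10, Mmp13 and Il6, and 2 had no probe set of their own. Of the 11, 8 were higher, 2 lower and 1 not called, with a median of 0.44. The heme oxygenase Hmox1 (2.23, SE 0.18, 4.70-fold), the metallothionein Mt2 (1.97) and the chemokine Ccl2 (1.93) rose most, and lower were Ets1 (-0.19, but 0.0754 with reference gene centring) and Plaur (-0.12, but 0.14 and called higher with it, adjusted p 0.031 in limma). Plaur and Cops5 lost their calls when any of several single arrays was left out, with changes of -0.13 to -0.10 for Plaur and -0.15 to -0.11 for Cops5. Of 12 textbook EGR1 targets 7 were tested, 5 higher and 2 lower with a median of 0.85, while Egr1 itself fell. Fibronectin, Fn1 (1.94, SE 0.05, 3.83-fold), Pdgfa (1.44) and tissue factor, F3 (1.00), rose, and the EGR1 corepressors Nab1 (-0.83) and Nab2 (-0.16, but 0.11 with reference gene centring) fell. With the arrays centred on reference genes, 6680 of all 11372 genes tested were higher and 2301 lower. Under that centring the calls were 6 higher and 6 lower for the other immediate early factors and 14 and 2 for the effectors. They were 14 and 0 for the bZIP partners and 4 and 1 for the serum response and ternary complex factors. The MAP kinase genes had 12 and 3, the phosphatases 8 and 0 and the regulators of JUN and FOS protein 5 and 1. The AU-rich element binding proteins had 2 and 5, the AP-1 targets 10 and 0 and the EGR1 targets 5 and 1. These lists carry no test of their own. Without that centring, the share of genes called in them ranged from 70% to 100%, against 77.3% of all genes.

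**Figure D3:**
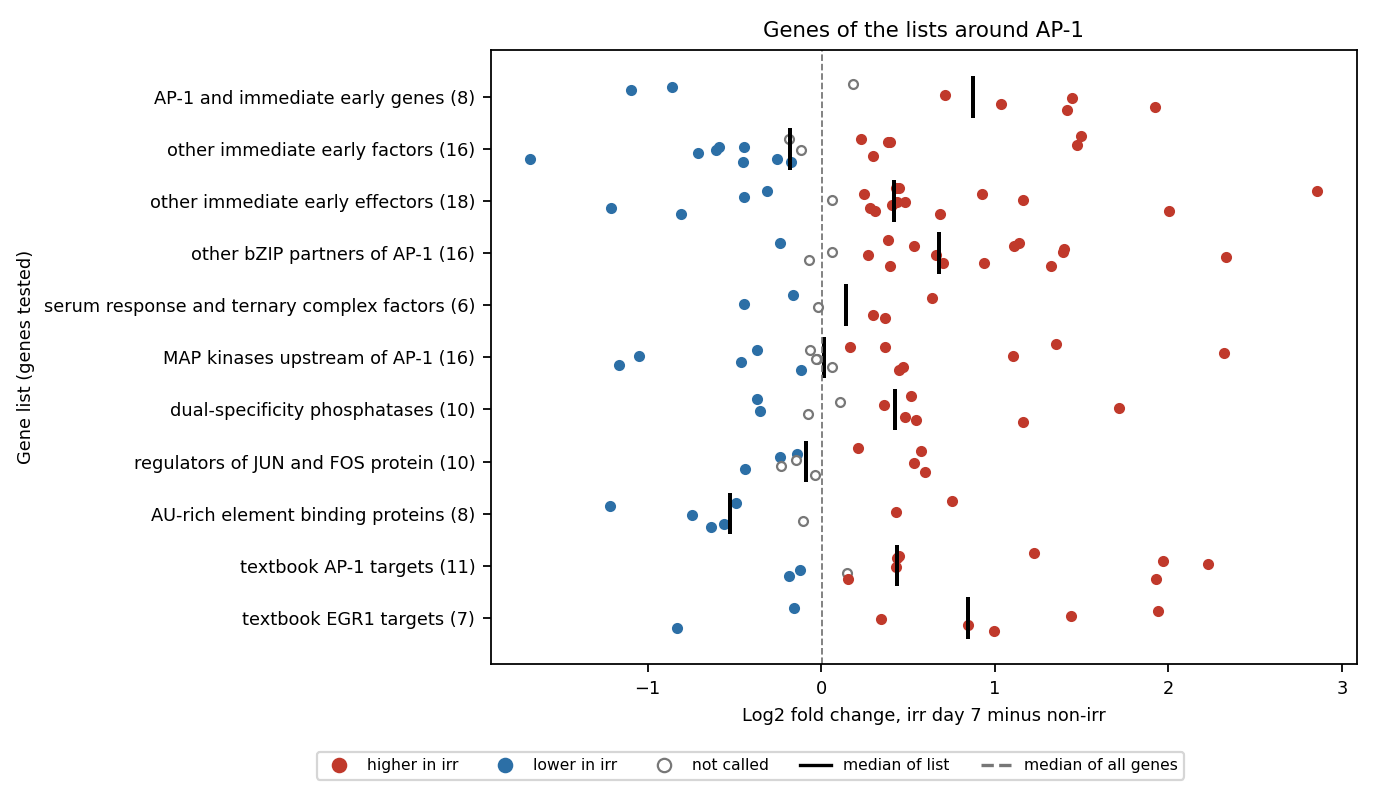
Log2 fold change (irr day 7 minus non-irr) of each tested gene in the members and the 10 related lists, coloured by its call, with the median of each list as a bar and the median of all genes (0.0069) as a dashed line. The bZIP partners lie mostly to the right of 0 with a median of 0.68, the AU-rich element binding proteins mostly to the left with a median of -0.52, and the other immediate early factors on both sides.

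Over 21 alternatives the log2 fold change stayed between 1.41 and 1.71 for Fos, between 1.33 and 1.68 for Atf3 and between 0.94 and 1.30 for Junb. Egr1 stayed between -1.13 and -0.83, and Ier2 between -0.90 and -0.59. Centring on 9 reference genes, of which 5 were themselves lower (Tfrc by a log2 fold change of -1.40) and 2 higher in irr NSCs, moved the median of all genes to 0.27 and gave 6680 genes higher and 2301 lower, in place of 4572 and 4219. Under that centring 6 members were higher, Jund (0.45, adjusted p 0.026 in limma) included, and Egr1 and Ier2 were still lower.

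**Figure D4:**
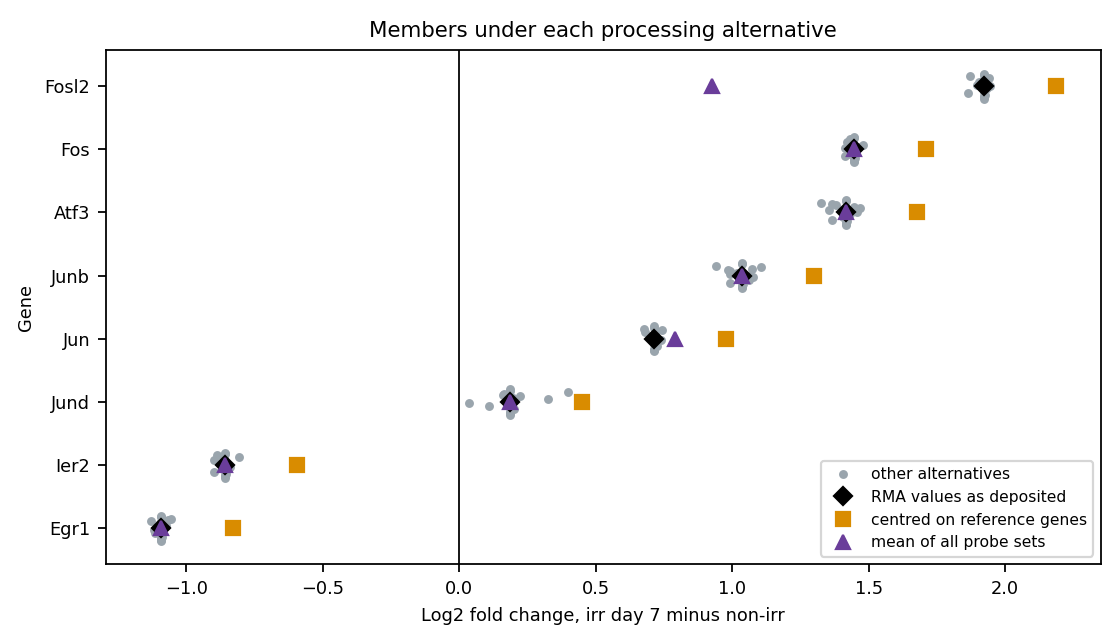
Log2 fold change (irr day 7 minus non-irr) of each tested member under the 21 alternative settings, with diamonds for the reported values, squares for centring on reference genes, triangles for the mean of a gene's probe sets and dots for the rest. Fosl2 has 1 alternative far from the others (0.93, the mean of both probe sets), Jund ranges from 0.03 to 0.45, and Egr1 and Ier2 stay under 0 in every one.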

How the data were processed

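RNA of 8 cultures was read on Affymetrix mouse genome arrays. The authors computed intensities with GCOS and normalized the arrays by RMA in R with Bioconductor packages, and the deposited values are the resulting log2 values of 45101 probe sets, 64 of them array controls, which range from 2.482 to 14.98. For GCOS the sources used here name no version. RMA equalizes the value distribution between arrays, so a general shift of all RNA would not be seen, and the number of arrays and the spread between them limit the precision. Detection calls were not used here. Genes were named from the platform annotation, with symbols updated by Entrez number for 34754 probe sets. Of all probe sets, 34958 had 1 symbol, 932 had several and 9211 had none, and the last 2 kinds named no gene.

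Control probe sets and those under an intensity of 100 (log2 6.64) on every array were left out, which left 21919 probe sets and 11372 genes. Irr and non-irr arrays were compared with limma 3.58.1 in R 4.3.3, two-sided, with Benjamini-Hochberg adjustment over all probe sets kept, and a probe set was called at an adjusted p under 0.05. The brightest probe set by its mean over 8 arrays stands for a gene. Where all arrays of a group were under 100, a fold is given as at least the brighter group over 100. Probe sets of 1 member were compared by exact permutation. The fit was tested on simulated data. The methods of the study describe the irradiation as performed in quadruplicate. The limma p-values set the group difference against the spread between these cultures, and do not cover variation between NSC lines.

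The members, the 10 related lists, the marker lists and the alternatives were chosen with earlier results of these data known. Named besides the members were, of each list, the 3 called genes that rose most and the 3 that fell most, and the 3 genes most like the member that changed most. The JNK genes Mapk8 and Mapk9, the dim target genes and Tfrc were named after their values were seen. Alternatives were other intensity filters, other scalings, limma with trend, array weights or a replicate block, arrays left out, the mean of a gene's probe sets, plain identifiers only, and a test against a 1.5-fold change. Promoters came from RefSeq (GRCm38.p6), and figures were drawn with matplotlib 3.10.9.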

Additional observations from a re-analysis of the deposited data

Results flagged for a closer look

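In 9 of 138 groups of 4 arrays, 1 array lay far from the other 3 by Dixon's criterion, where chance gives about 1 in 20. One concerned a member, Fosl1 1417487_at, with 5.337 in non-irr replicate 4, against 4.973 to 5.025 on the other non-irr arrays, all under the intensity filter. In irr NSCs, Trib1 read 7.818 in replicate 1 (others 7.547 to 7.584), Mapk10 read 8.389 in replicate 1 (others 8.6 to 8.635) and Rps6ka5 read 9.342 in replicate 3 (others 9.49 to 9.507). In non-irr NSCs, replicate 1 read 7.62 for Ccn2 (others 7.436 to 7.444) and 8.442 for Hmox1 (others 7.868 to 7.917). Also in non-irr NSCs, Mapk10 read 6.3 in replicate 2 (others 6.216 to 6.229), Crem read 8.666 in replicate 3 (others 8.407 to 8.439), and Elk3 read 10.43 in replicate 4 (others 10.29 to 10.31). Each of these genes except Fosl1, which was not tested, was called in the same direction with any 1 of the 8 arrays left out.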

How the results depend on the processing

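Fos, Fosl2, Junb, Atf3, Egr1 and Ier2 kept their direction and call under all 21 alternatives. With the arrays centred on reference genes, 7 named genes and 1 member probe set turned to positive log2 fold changes, namely Batf 0.0251, Mrtfb 0.10, Cops5 0.12, Men1 0.0258, Plaur 0.14 (called higher, adjusted p 0.031), Ets1 0.0754, Nab2 0.11 and Fosl2 1422931_at 0.19, as the whole distribution moved. Tested against a 1.5-fold change, which asks for larger changes, the genes called fell to 3 for other immediate early factors, 6 for effectors, 7 for bZIP partners, 0 for serum response and ternary complex factors, 5 for MAP kinases, 2 for dual-specificity phosphatases, 0 for regulators of JUN and FOS protein, 2 for AU-rich element binding proteins, 4 for AP-1 targets and 4 for EGR1 targets. The share of all genes called in that test is not given here, so these counts cannot be set against the whole array. With plain identifiers only, 5 dual-specificity phosphatases were called, in place of 8. The probe sets that otherwise stand for Dusp7, Dusp14 and Dusp16 have no plain identifier and are left out in this setting. With 1 array left out at a time, the member genes called numbered 7 to 8 and those at least 2-fold 4 to 5, and the difference between probe sets ranged from -1.14 to -0.998 for Fosl1, 1.97 to 2.02 for Fosl2, -0.18 to -0.12 for Jun and 0.31 to 0.63 for Jund. Without irr replicate 4 the differences of Fosl1, Fosl2 and Jund each reached an adjusted p of 0.038 in the exact permutation test. Calls were lost for Cops5 without irr replicate 1, 2 or 4 or non-irr replicate 1, 2 or 3 (adjusted p 0.054 to 0.098 in limma), for Plaur without irr replicate 2, 3 or 4 or non-irr replicate 1 or 4 (0.066 to 0.12), and for Nab2 without irr replicate 2 (-0.14, 0.057) or non-irr replicate 4 (-0.13, 0.058). Replicate numbers did not pair all the arrays (same-number correlations of 0.0433, 0.376, -0.207 and 0.509). Irr replicates 2 and 4 correlated best with the non-irr array of their own number, but irr replicates 1 and 3 with non-irr replicates 2 and 4. With the replicate block, 7 member genes were called and 5 at least 2-fold, as without it. Without an intensity filter, Fosb (0.30, adjusted p 0.029), Fosl1 1417487_at (1.26, 3e-06), Fosl1 1417488_at (0.20, 0.045) and Jund 1440265_at (-0.30, 0.0053) would be called in limma, all at levels under an intensity of 100. Hnrnpd was -0.10 and not called with plain identifiers only (adjusted p 0.25).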
